A study of Homo sapiens with 4 samples.

Results

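WNT proteins are secreted, lipid-modified signals that bind Frizzled receptors, most often together with the LRP5 or LRP6 co-receptor. In the canonical branch this binding stops a cytoplasmic complex built on AXIN and APC from marking beta-catenin for destruction, so beta-catenin reaches the nucleus and works with TCF/LEF factors. Other WNT proteins, WNT5A among them, act mainly through branches that steer cell polarity, movement and calcium. Secreted Frizzled-related proteins and WIF1 bind the ligand outside the cell, and Dickkopf proteins of the DKK1 type block the co-receptors. In ovarian cancer the pathway has been studied for its part in invasion and in the spread of epithelial tumours.

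The 40 genes described here were listed by name: 17 WNT ligands, 10 Frizzled receptors, 2 LRP co-receptors, 6 secreted antagonists (SFRP1, SFRP2, SFRP4, SFRP5, FRZB and WIF1), 4 Dickkopf genes and AXIN2, a destruction complex scaffold that is itself a target of canonical signalling. Probes were assigned to them through the transcript accession in the array files, so no measured value entered the assignment of probes. The genes themselves were listed with earlier results of these data known. Of the 40 genes, 39 had a probe among the 41000 probes of the array, with 58 probes in all, and WNT9A matched none. After a filter on dim probes 57 probes of 38 genes were kept out of 39151 kept on the whole array, the probe lost being that of WNT16, which was well above background in ctrl on 3 of 4 arrays and in the shRNA clones on 2 of 4.

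The cells were A2780s, a human ovarian adenocarcinoma line. They had been stably transfected with an shRNA against GALNT3 in the pSilencer 4.1 puro vector. GALNT3 is a member of an enzyme family that starts mucin-type O-glycan chains. From these cells came 2 puromycin-resistant clones, called sh-G1 and sh-G2 here (clone 1 and clone 2 of the labels). Each was hybridised against 1 control clone (ctrl) that carried the vector from a mock transfection. Each clone was measured on 2 two-colour arrays with the dyes exchanged, the shRNA clone being in Cy5 on replicate 1 and in Cy3 on replicate 2, so that 4 arrays stand for 2 clones. Each shRNA line is 1 clone, both share the ctrl clone, and nothing in the labels says that the arrays of a clone came from separate cultures.

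Some facts of the arrays bear on every value below. The software marked 88.1% to 97.0% of spots per array as well above background for the shRNA clone and 95.9% to 97.6% for ctrl, and 0 as saturated. That mark is permissive, since all 7 probes of endothelial genes carried it in ctrl on 4 of 4 arrays, as did all 14 of ovarian or epithelial carcinoma markers, and it is not read here as proof of expression. Across the 39151 probes the ratios of the dye-swapped arrays correlated at r = 0.32 for sh-G1 and at r = 0.19 for sh-G2, a description over genes and not over replicates. The GALNT3 probe gave log2 ratios of -0.09 and 0.08 (sh-G1) and of 0.12 and -0.14 for sh-G2, and was well above background in the shRNA clones on 2 of 4 arrays and in ctrl on 4 of 4. Before normalisation its median intensity was 61 to 74 in the shRNA clones and 64 to 91.5 in ctrl. The median background per array and channel was 38 to 41. The arrays therefore did not measure a lower GALNT3 level, but a probe so near background leaves little room for a fall. They cannot decide whether GALNT3 was lower. The paper chose these clones because RT-PCR and Western blots showed significantly less GALNT3 than in its mock-transfected control. The clones are named by their labels throughout. Among the 14 probes of carcinoma markers 4 fell with limma, where 0.7% of all probes did, and the list median was -0.08. The 4 were 3 of KRT18 and 1 of KRT8, which encode the keratins of simple epithelia. None of the 7 endothelial probes passed. Of 13 probes of mesenchymal genes none passed limma (smallest adjusted p = 0.058), and by the 1.5-fold rule described below 2 were lower in sh-G1 and 3 in sh-G2. These were ZEB2, with means of -1.16 in sh-G1 and of -1.55 for sh-G2, and CDH2, at -1.01 and -2.00, with SNAI2 in sh-G2 alone, at -0.85. By that rule 1.24% of all probes were lower for sh-G1, against 1.42% for sh-G2. Probes of VIM, TWIST1, ZEB1, FN1 and COL1A2 did not meet it. For sh-G1 the median of the 13 mesenchymal probes was 0.02, with 5 negative and 10 within 0.3 of 0. For sh-G2 it was -0.15, with 11 negative and 8 within 0.3 of 0. The part of these markers in the values of the WNT genes was not tested.

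The largest differences between the clones were at the WNT5A probe and at the FZD4 probe A_23_P64617. Only that of WNT5A passed limma, and a second FZD4 probe did not show the difference. DKK1 holds the letters that TCF/LEF factors bind. The promoter windows of WNT5A, FZD4 and DKK1 are shown first. They are the 250 bases before the start of the gene, 5′ to 3′ on the gene's strand, from RefSeq (GRCh38.p14). Capitals mark CTTTGAA or CTTTGAT or CTTTGTA or CTTTGTT on either strand. WNT5A has windows for 2 starts, at chr3:55487307-55487556 and chr3:55481399-55481648, both on the minus strand. That of FZD4 is chr11:86955396-86955645 on the minus strand and that of DKK1 is chr10:52314031-52314280 on the plus strand.
WNT5A, first start: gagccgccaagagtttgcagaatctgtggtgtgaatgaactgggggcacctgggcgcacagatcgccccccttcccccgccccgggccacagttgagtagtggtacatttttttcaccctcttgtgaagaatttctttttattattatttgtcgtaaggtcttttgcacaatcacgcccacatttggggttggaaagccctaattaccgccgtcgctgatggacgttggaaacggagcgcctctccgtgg
WNT5A, second start: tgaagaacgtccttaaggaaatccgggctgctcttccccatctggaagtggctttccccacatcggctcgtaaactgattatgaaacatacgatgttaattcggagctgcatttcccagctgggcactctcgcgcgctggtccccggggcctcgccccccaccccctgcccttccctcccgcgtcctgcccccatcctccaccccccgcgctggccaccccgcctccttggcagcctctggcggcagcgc
FZD4: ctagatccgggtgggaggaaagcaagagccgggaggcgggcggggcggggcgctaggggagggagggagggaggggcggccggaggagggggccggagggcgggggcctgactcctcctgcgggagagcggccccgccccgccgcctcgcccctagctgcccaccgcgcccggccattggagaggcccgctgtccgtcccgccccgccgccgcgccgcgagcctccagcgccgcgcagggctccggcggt
DKK1: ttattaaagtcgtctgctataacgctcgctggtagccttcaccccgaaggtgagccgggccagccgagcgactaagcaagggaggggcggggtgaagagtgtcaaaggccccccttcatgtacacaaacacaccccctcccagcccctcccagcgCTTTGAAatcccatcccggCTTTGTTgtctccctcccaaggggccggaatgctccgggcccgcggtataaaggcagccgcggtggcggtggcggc

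The table of promoter windows (250 bases before to 50 after the start) matched 26 of the 40 genes, with 29 windows. DKK3, SFRP1 and FZD7 had none. The searched letters stood in 2 of the 29 windows, 6.90%, those of WNT3 and DKK1, against 13.8% of all 35116 windows of the same length. In DKK1 they lay 95 and 76 bases before the start. The windows shown for WNT5A and FZD4 hold none of them, which says only that these letters are not in these windows. The windows of the WNT genes were rich in G and C, with a median of 69.7% against 58.7% over all windows, and held a median of 29 CG pairs against 14.

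Ratios below are log2 values of the shRNA clone over ctrl, positive where the clone was higher. Errors on a mean over clones are standard errors from limma with n = 2 clones, and adjusted p-values are from limma with the Benjamini-Hochberg method over all 39151 probes. As measured by the mean of the clones, 0 of the 57 probes rose and 1 fell, DKK3, where 0.138% of all probes rose and 0.7% fell. At an unadjusted limma p under 0.05 there were 17 of the 57 probes (29.8%) and 5205 of all (13.3%). A second limma test, of sh-G2 against sh-G1, called 1 of the 57, WNT5A, where 0.123% of all probes were called. Its spread is that between arrays of the same clones, so it compares these RNA samples and not kinds of clone.

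Each clone was also read by itself with a rule that carries no test, at least 1.5-fold in 1 direction on both of its arrays. In sh-G1 this held for 1 probe that was higher, of FZD4, and 1 that was lower, of DKK3, where 0.442% and 1.24% of all probes met it. In sh-G2 it held for 2 that were higher, of WNT5A and FZD7, and 3 that were lower, of FZD4, SFRP1 and DKK3, where 0.552% and 1.42% of all probes met it. Most of the 57 probes sat near 0, with 45 within 0.3 of it in sh-G1 (78.9%, against 91.6% of all probes) and 43 in sh-G2 (75.4%, against 90.0%).

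**Figure D1:**
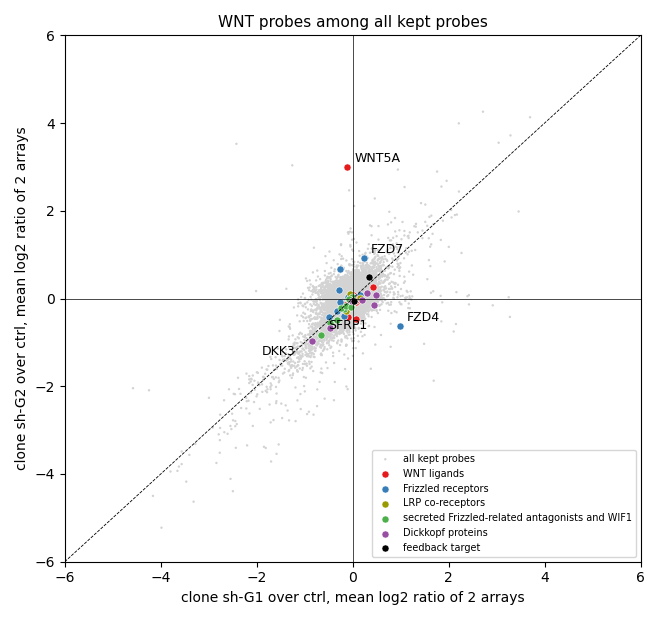
Mean log2 ratio of sh-G1 over ctrl (x axis) and of sh-G2 over ctrl (y axis), each the mean of 2 dye-swapped arrays, for the 39151 kept probes (grey) and the 57 WNT probes (coloured by role), with equality dashed and the genes past 1.5-fold in a clone named. WNT5A lies near 0 on the x axis and at 2.99 on the y axis. The named FZD4 probe (A_23_P64617) lies below the dashed line on the right, and both axes share the ctrl clone.

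Among the ligands, WNT5A stood alone. WNT5A is a ligand best known for signalling without beta-catenin. Its single probe gave ratios of -0.06 and -0.15 for sh-G1 and of 3.15 and 2.84 for sh-G2. The sh-G2 arrays were both high, the sh-G1 arrays were both near 0, and the clones did not overlap. Each value is a total over the cells of a clone, so more expressing cells and more RNA per cell cannot be told apart. Before normalisation the median spot intensity of sh-G2 was 1192 and 1196, against 199 and 150.0 for ctrl in the other channel of the same arrays. That of sh-G1 was 120.0 and 115, against 200.0 and 137 for ctrl. WNT5A in sh-G2 was thus 7.96-fold above ctrl by the mean of its arrays, and the difference between the clones was 3.10 ± 0.10 (SE from limma over the 4 arrays), or 8.58-fold, with an adjusted p of 0.0047 from limma. The mean over both clones, 1.44 ± 0.83, did not pass (limma adjusted p = 0.59). The size of the difference depended on the background treatment: it was 3.73 with the log ratios of the feature extraction software and 3.60 with no offset in the background correction, both past the threshold.

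The other 19 kept ligand probes, of 14 genes, changed in neither limma test. Over all 20 ligand probes the median of the clone means was 0.00 (all probes, -0.00), and the count within 0.3 of 0 was 19 for sh-G1 and 17 for sh-G2. WNT3, a canonical ligand, had ratios of 0.40, 0.45, 0.26 and 0.27 on the 4 arrays (sh-G1 replicates 1 and 2, then sh-G2 replicates 1 and 2), all of them positive, with a mean of 0.35 ± 0.07 that did not pass (limma adjusted p = 0.22). WNT5B, the closest relative of WNT5A, gave -0.25, 0.06, -0.75 and -0.10, and its mean of -0.26 had a limma adjusted p of 0.42.

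Several ligand probes followed the dye and not the clone. WNT3A, the ligand most used to switch on canonical signalling, gave 0.38 and 0.61 where the shRNA clone was in Cy5 and -0.36 and -0.45 where it was in Cy3, so that its mean over the clones was 0.05. WNT1 and 1 of the 2 WNT11 probes were split in the same way, at 0.30 and 0.15 against -0.16 and -0.29 for WNT1 and at 0.25 and 0.21 against -0.22 and -0.22 for WNT11. In each clone the dye-swapped arrays gave the same sign for 6 of the 20 ligand probes (30.0%), against 40.6% (sh-G1) and 34.9% (sh-G2) of all probes. The 2 probes of WNT6 disagreed in size, with 0.04, -0.13, -0.20 and -0.16 for one and 0.56, -0.40, -1.18 and 0.25 for the other. WNT7A was well above background in the shRNA clones on 2 of 4 arrays, and the WNT10A probe A_23_P102117, at 0.06, 0.02, 0.02 and 0.01, moved least from array to array.

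**Figure D2:**
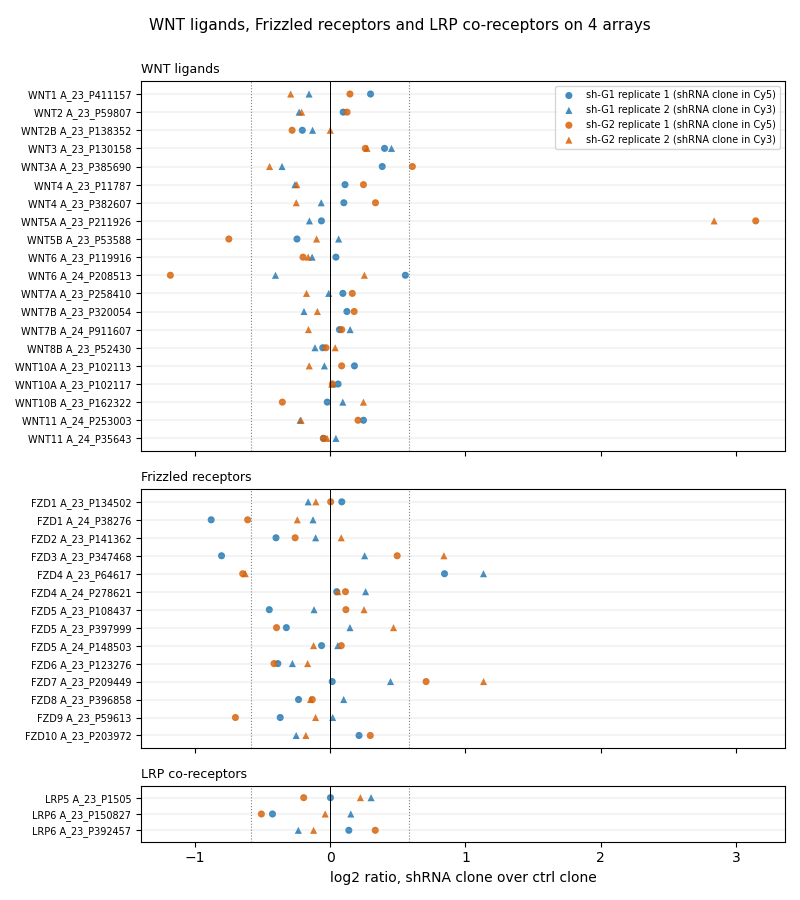
Log2 ratio of the shRNA clone over ctrl (x axis) for each kept probe of the ligands, Frizzled receptors and LRP co-receptors (rows, named by gene and probe), with sh-G1 in blue, sh-G2 in orange, replicate 1 as circles and replicate 2 as triangles, and dotted lines at 1.5-fold. WNT5A in sh-G2 stands at 3.15 and 2.84, and for WNT3A circles and triangles fall on opposite sides of 0. The FZD4 probe A_23_P64617 lies past the dotted lines on opposite sides in the 2 clones, and the FZD4 probe A_24_P278621 does not.

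Of the 14 kept probes of the 10 Frizzled receptors, none passed the limma test of the mean (smallest adjusted p = 0.12) and none that of the clone difference (smallest adjusted p = 0.064). FZD4, a receptor known from the vessels of the retina, met the 1.5-fold rule in both clones in opposite directions. One of its probes (A_23_P64617) gave 0.85 and 1.13 in sh-G1 and -0.65 and -0.63 in sh-G2, so the clones did not overlap and lay on either side of ctrl. By the mean of its arrays FZD4 was 1.99-fold above ctrl in sh-G1 and 1.56-fold below it in sh-G2. The difference of -1.63 ± 0.14, or 3.09-fold, did not pass (limma adjusted p = 0.064, and 0.42 without the dye term in the model). The second FZD4 probe (A_24_P278621) did not show this, with 0.05, 0.26, 0.11 and 0.06 and a clone difference of -0.07 ± 0.10 (limma adjusted p = 0.96). With the software's own log ratios, or with median centring in place of the loess fit, the FZD4 probe no longer met the 1.5-fold rule in sh-G2.

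FZD7, a receptor studied in several carcinomas and in stem cells, gave 0.01 and 0.45 in sh-G1 and 0.71 and 1.13 in sh-G2. Both sh-G2 arrays were above both sh-G1 arrays, and within each clone the array with the shRNA clone in Cy3 was the higher. FZD7 in sh-G2 was 1.89-fold above ctrl and in sh-G1 1.17-fold above it. Neither the mean of 0.58 ± 0.19 (limma adjusted p = 0.37) nor the difference of 0.69 ± 0.12 (limma adjusted p = 0.21) passed.

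The other receptors changed in neither test. FZD6, which works in planar polarity, was low on every array, at -0.39, -0.28, -0.42 and -0.17, with a mean of -0.31 ± 0.04 (limma adjusted p = 0.12). One probe of FZD1 (A_24_P38276) gave -0.88, -0.13, -0.61 and -0.24, farther from 0 where the shRNA clone was in Cy5, while the other (A_23_P134502) had a mean of -0.04. FZD3, a receptor of axon guidance, gave -0.80 and 0.25 in sh-G1, a gap between the dyes that was larger than its mean of -0.27, and 0.50 and 0.84 in sh-G2, and its clone difference of 0.94 ± 0.19 did not pass (limma adjusted p = 0.26). FZD10 was split by dye, at 0.21 and 0.30 against -0.25 and -0.18. The smallest mean was that of 1 of the 3 FZD5 probes (A_24_P148503), at -0.01.

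The 3 probes of the co-receptors changed in neither test. LRP5 had a mean of 0.08 ± 0.06 (limma adjusted p = 0.69). The 2 probes of LRP6 gave -0.43, 0.15, -0.51 and -0.04 for one and 0.14, -0.24, 0.33 and -0.12 for the other, so each differed by dye, in opposite senses.

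**Figure D3:**
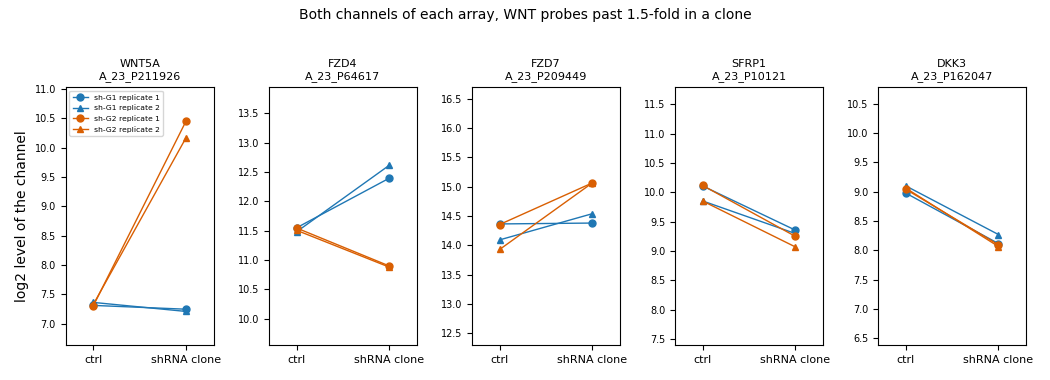
Log2 level of the ctrl channel and of the shRNA clone's channel (y axis, after loess and quantile scaling of brightness between arrays) on each of 4 arrays, joined by a line, for the 5 WNT probes that met the 1.5-fold rule in a clone. Every panel spans the same log2 range, and levels are not comparable between probes. The ctrl levels of WNT5A and FZD4 nearly coincide on the 4 arrays while the lines of sh-G1 and sh-G2 part.

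The secreted antagonists lay mostly below 0, but 8 of their 11 kept probes were within 0.3 of it in each clone. The 11 probes belong to 6 genes and are not separate members. Of them, 10 had a negative mean in sh-G1 and 10 in sh-G2 (90.9%), against 51.8% and 52.4% of all probes. Both arrays were below 0 for 6 probes in sh-G1 (54.5%) and 7 in sh-G2 (63.6%), against 21.4% and 18.6% of all probes. The medians were -0.14 and -0.19, against -0.00 and -0.01. Both clones were set against the same ctrl clone, so these counts are not independent of each other. No antagonist probe passed limma (smallest adjusted p = 0.064), and 6 of the 11 (54.5%) had an unadjusted limma p under 0.05, against 13.3% of all probes.

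SFRP1, a soluble Frizzled-like protein often silenced in carcinomas, was the lowest of them. One probe (A_23_P10121) gave -0.75 and -0.56 in sh-G1 and -0.87 and -0.78 in sh-G2, all 4 arrays being below 0. SFRP1 at this probe was 1.57-fold below ctrl in sh-G1 and 1.77-fold below it in sh-G2, with a mean of -0.74 ± 0.07 (limma adjusted p = 0.064). It met the 1.5-fold rule in sh-G2, and missed it in sh-G1 through the array at -0.56. The other SFRP1 probe (A_23_P10127) gave -0.25, -0.68, -0.33 and -0.81, again all below 0 and farther from it with the shRNA clone in Cy3, with a mean of -0.52 ± 0.07 (limma adjusted p = 0.11). The first probe passed limma in the software's own log ratios (mean -0.82, adjusted p = 0.048). With ctrl given the same spread as the shRNA clones, neither probe passed (limma adjusted p = 0.41 and 0.66). Without 1 array at a time, 1 clone stands on 1 dye, and the dye no longer cancels in its mean. The mean of the first probe then ran from -0.79 (without sh-G1 replicate 2) to -0.69 (without sh-G1 replicate 1). That of the other ran from -0.64 (without sh-G2 replicate 1) to -0.39 (without sh-G2 replicate 2). In the deposited table of 3 arrays the first had a mean of -0.87.

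WIF1, which binds WNT proteins directly, had 2 probes that differed in size. A_32_P216520 gave -0.66, 0.02, -0.62 and -0.35, and its mean of -0.40 ± 0.07 did not pass (limma adjusted p = 0.18). A_32_P9941 lay closer to 0, at -0.01, -0.06, -0.20 and -0.19, with a mean of -0.12 ± 0.06 (limma adjusted p = 0.54). The 2 probes of FRZB, also called SFRP3, were below 0 on all 4 arrays, with means of -0.23 and -0.16 (limma adjusted p = 0.18 and 0.28). SFRP4 was at -0.21 ± 0.04 (limma adjusted p = 0.21) and was well above background in the shRNA clones on 3 of 4 arrays. The 3 probes of SFRP2 lay between -0.04 and 0.01, and SFRP5 was at -0.03.

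**Figure D4:**
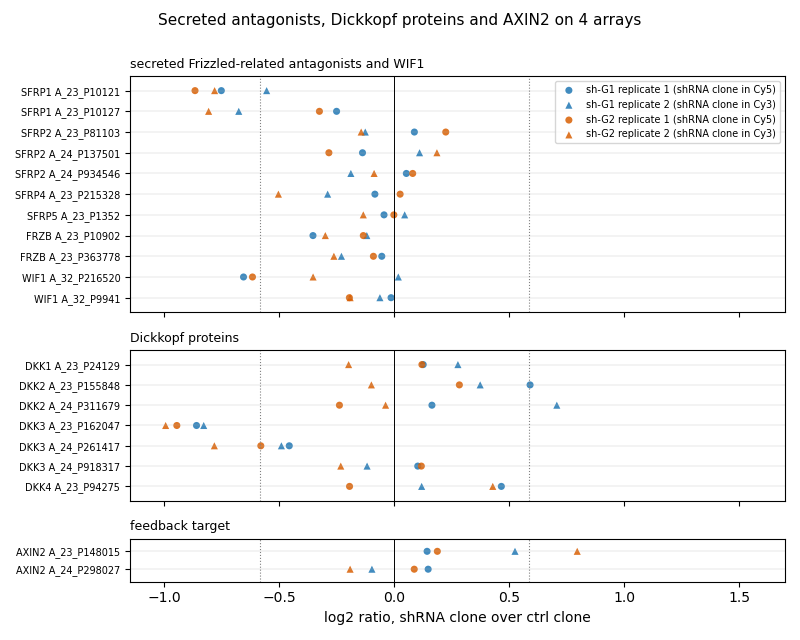
Log2 ratio of the shRNA clone over ctrl (x axis) for each kept probe of the secreted antagonists, Dickkopf genes and AXIN2 (rows), with sh-G1 in blue, sh-G2 in orange, replicate 1 as circles and replicate 2 as triangles, and dotted lines at 1.5-fold. The 4 arrays of the DKK3 probe A_23_P162047 sit between -0.99 and -0.83, and both SFRP1 probes lie below 0 on every array.

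DKK3 held the WNT probe that fell with limma. DKK3 belongs to the Dickkopf family by sequence, but unlike DKK1 it is not a typical blocker of the co-receptors, and it is known as a gene reduced in many tumours. The probe A_23_P162047 gave -0.86 and -0.83 in sh-G1 and -0.95 and -0.99 in sh-G2. The 4 arrays spanned a narrow range, with no split by dye. Before normalisation its median intensity was 222, 244, 223 and 275 in the shRNA clones and 685, 485, 666 and 516 in ctrl. DKK3 was 1.80-fold below ctrl in sh-G1 and 1.96-fold below it in sh-G2, and the mean of -0.91 ± 0.05 passed (limma adjusted p = 0.034). That call was lost when the single ctrl clone was given the same spread as the shRNA clones (limma adjusted p = 0.23), a setting under which 0 of the 39151 probes passed and 1862 had an unadjusted p under 0.05. The clones did not differ detectably from each other at this probe (-0.13 ± 0.09, limma adjusted p = 0.87).

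The other probes of DKK3 did not all follow. A_24_P261417 was below 0 on all arrays, at -0.46, -0.49, -0.58 and -0.78, with a mean of -0.58 ± 0.07 (limma adjusted p = 0.095). In the shRNA clones it was well above background on 3 of 4 arrays, and on the remaining array it was kept through ctrl. The probe was dropped when both channels had to be above background. Its mean was -1.04 with no offset in the background correction and -1.35 in the software's own log ratios, neither past the threshold. In the deposited table of 3 arrays, with 1 array of sh-G1, its mean was -1.47. With 1 array left out it ran from -0.63 (without sh-G2 replicate 1) to -0.53 (without sh-G2 replicate 2). In such fits 1 clone stands on 1 dye. The probe passed with clone as a random block (limma adjusted p = 0.0019) and with clone and dye terms over 4 arrays (limma adjusted p = 0.0055). Both take arrays of a clone as separate samples in part. When ctrl was assumed to vary as much as an shRNA clone, the limma adjusted p of A_24_P261417 was 0.57. A_24_P918317 gave 0.10, -0.12, 0.12 and -0.23, split by dye, with a mean of -0.03. No sequence of these probes was used here, so which DKK3 transcripts each one reads cannot be stated.

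The remaining Dickkopf genes changed in neither test. DKK1, the classic co-receptor blocker and a target of beta-catenin, gave 0.13, 0.28, 0.12 and -0.20, with a mean of 0.08 ± 0.09 (limma adjusted p = 0.78). The 2 probes of DKK2 were positive on both arrays of sh-G1, at 0.59 and 0.37 and at 0.16 and 0.71, and closer to 0 in sh-G2, at 0.28 and -0.10 and at -0.24 and -0.04. Their clone differences of -0.39 and -0.57 did not pass (limma adjusted p = 0.41 and 0.27). DKK4 had a mean of 0.20 (limma adjusted p = 0.34).

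AXIN2, the common readout of canonical signalling, had 2 probes that disagreed. A_23_P148015 gave 0.14, 0.53, 0.19 and 0.80, positive on all 4 arrays and higher with the shRNA clone in Cy3, with a mean of 0.41 ± 0.06 that did not pass (limma adjusted p = 0.15). A_24_P298027 gave 0.15, -0.10, 0.09 and -0.19, with a mean of -0.01.

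The wider pathway was read through 6 lists that held 127 kept probes of 83 other genes. No probe of these rose with limma, 3 fell, where 0.138% and 0.7% of all probes did, and 23 (18.1%) had an unadjusted limma p under 0.05, against 13.3% of all probes. Their median clone mean was -0.01 (all probes, -0.00). No probe of the 127 passed the test of the clone difference (smallest limma adjusted p = 0.21). By the 1.5-fold rule 2 were higher and 5 lower in sh-G1, and 2 higher and 6 lower in sh-G2. As shares of the 127 these were 1.57%, 3.94%, 1.57% and 4.72%, where 0.442%, 1.24%, 0.552% and 1.42% of all probes met the rule.

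Where 0.7% of all probes fell, 1 of the 21 probes of other receptors and surface regulators did. It belongs to SOST, which encodes sclerostin, a secreted inhibitor that binds LRP5 and LRP6, and it gave -1.16, -1.43, -1.45 and -1.63, a mean of -1.42 ± 0.08 or 2.67-fold below ctrl (limma adjusted p = 0.032). All 4 arrays were well below 0. GPC4, a glypican that carries WNT and other ligands at the cell surface, met the 1.5-fold rule in the other direction, at 0.96, 0.81, 1.83 and 1.23, and its mean of 1.21 ± 0.18 did not pass (limma adjusted p = 0.14).

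Of the 36 probes of known beta-catenin and TCF target genes, 2 fell, where 0.7% of all probes did. BMP4, a growth factor of the TGF-beta family, gave -1.20, -0.89, -1.37 and -0.93, a mean of -1.10 ± 0.05 (limma adjusted p = 0.021). It was well above background in sh-G1 on 2 of 2 arrays and in sh-G2 on 1 of 2. On the remaining array BMP4 was kept through ctrl, where it is higher. Its call therefore rests on the filter used, and the size of its fall is uncertain. One probe of FGF18, a fibroblast growth factor, gave -0.97, -0.58, -0.76 and -0.76, a mean of -0.77 ± 0.05 (limma adjusted p = 0.034), while its other probe had a mean of -0.27 (limma adjusted p = 0.14). EPHB3, an ephrin receptor, gave -1.08, -0.61, -1.33 and -0.96 and met the 1.5-fold rule in both clones without passing limma (adjusted p = 0.065). The list median was -0.04. The 2 probes of MYC had means of -0.10 and -0.02, and the 3 of CCND1, which encodes cyclin D1, lay between -0.43 and -0.08, none past the threshold. LEF1, which is both a target and a nuclear partner of beta-catenin, was at 0.07 and -0.04.

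The 27 probes of the cytoplasmic transducers and destruction complex held no limma call. Of APC2, a relative of the APC scaffold, 2 probes met the 1.5-fold rule in both clones, at -1.31, -0.89, -1.74 and -1.45 and at -0.87, -0.89, -1.47 and -1.20, with means of -1.35 ± 0.14 and -1.11 ± 0.13 (limma adjusted p = 0.081 and 0.099). The remaining APC2 probes were at -0.44 and -0.06. The probes of CTNNB1, the gene of beta-catenin, had means of -0.05 and 0.01. These are RNA values and do not measure protein. By Western blot the paper reported more beta-catenin protein after GALNT3 suppression. In the planar polarity and calcium branch (20 probes) no limma call was made, and PRICKLE1, a core planar polarity protein, was the probe that met the 1.5-fold rule, in both clones and between 1.06 and 1.48 on the 4 arrays, with a mean of 1.26 ± 0.11 (limma adjusted p = 0.058). The 13 probes of ligand processing and agonists and the 18 of nuclear effectors held no call of either kind, with medians of -0.02 and -0.02.

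**Figure D5:**
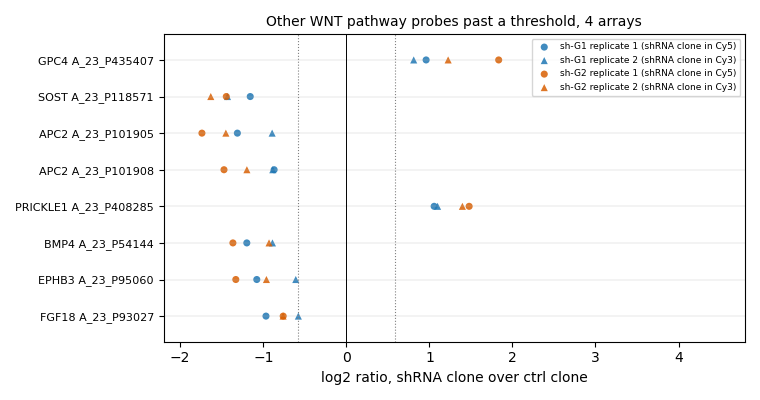
Log2 ratio of the shRNA clone over ctrl (x axis) on 4 arrays for the 8 probes of other pathway genes that passed a limma test or met the 1.5-fold rule in a clone (rows), coloured and marked as in the plots of the WNT genes, with dotted lines at 1.5-fold. GPC4 and PRICKLE1 lie to the right of 0 on every array and the probes of SOST, APC2, BMP4, EPHB3 and FGF18 to the left.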

How the data were processed

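Total RNA of each shRNA clone and of the ctrl clone was labelled with Cy3 or Cy5 and hybridised to Agilent whole human genome arrays. The deposited files hold spot intensities and a log10 ratio per spot from Agilent Feature Extraction, version 8.5.1.1 per the labels and 10.5.1.1 per the file headers, with local background measured on each array. A deposited table of the authors' log10 ratios matched these files for 3 of 4 arrays and was used as an alternative. No count of molecules or reads stands behind an intensity, so the number of clones, 2 with the shRNA and 1 ctrl, limits the precision.

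Median intensities were background-corrected with limma 3.58.1 in R 4.3.3 (normexp, offset 50), turned into log2 ratios and normalised by loess within each array. Control spots and spots marked as outliers were left out, spots of a probe were averaged, and ratios of dye-swapped arrays were turned to read shRNA clone over ctrl. A value was available on every array for 40905 probes, and 39151 of them were kept because, on each array, the software marked 1 or both channels as well above background. A probe that was dim in an shRNA clone could thus be kept through ctrl alone. With both channels required, 54 of the WNT probes were kept. Probes were named by accession through RefSeq (25398 of 41000 probes), and every probe of a gene was kept apart.

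The 2 arrays of a clone were averaged and the 2 clone means tested against 0 with limma (trend on brightness). This test leaves out the spread of ctrl, which is 1 clone. The clones were compared with limma over the 4 arrays with a dye term. Adjusted p-values use Benjamini-Hochberg over all kept probes, with 0.05 as threshold. The fits were also run on simulated data with known changes. Those data held no effect shared through the ctrl clone, so they cannot show what leaving out its spread does. All 4 arrays lie on 1 slide. Alternatives covered the background correction, normalisation, probe filter, outlier spots, single arrays and clones, and the model. Every member gene was accounted for. Values on each array were given by rule for members that met the 1.5-fold rule in a clone or passed a limma test, and for GALNT3, with up to 4 further examples per role. Of other pathway genes those that met either criterion were given the same way, and MYC, CCND1, LEF1 and CTNNB1 were named for their role. The members, the gene lists and this rule were chosen with earlier results of these data known. Promoter windows were copied from RefSeq. The leukocyte markers are not reported here.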

Additional observations from a re-analysis of the deposited data

Results flagged for a closer look

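At 4 of the 57 WNT probes both arrays of one clone lay on the other side of 0 from both arrays of the other. Of these only WNT5A passed the limma test of the difference. Over the whole array 1799 of the 39151 probes lay on opposite sides in that way, so the count is not read as particular to the WNT genes. WNT5A was 3.10 higher in sh-G2 than in sh-G1 on the log2 scale (limma adjusted p = 0.0047). The FZD4 probe A_23_P64617 differed by -1.63, with sh-G1 at 0.99 and sh-G2 at -0.64 (limma adjusted p = 0.064), a difference that the second FZD4 probe did not show. The FZD5 probe A_23_P108437 differed by 0.47, with means of -0.28 and 0.18 (limma adjusted p = 0.30). The DKK2 probe A_24_P311679 differed by -0.57, with means of 0.44 and -0.14 (limma adjusted p = 0.27). Each clone is a single line, so clone and sample cannot be told apart.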

How the results depend on the processing

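WNT5A was called by the test of the clone difference under all 8 alternatives that could be tested, where its difference ran from 3.02 to 3.73, and this was the WNT call under each of them. Over all probes that test called 48, but 31 with both channels above background and 5 without a dye term. DKK3 (A_23_P162047) passed the test of the mean under every alternative that used all 4 arrays, but for that of an equal spread for ctrl.

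The mean of the clones called 54 probes higher and 274 lower over the array, and 0 and 1 of the WNT probes. With the software's log ratios 118 were higher, and 2 WNT probes were lower. With the deposited table of 3 arrays these were 215 higher and 786 lower, and 3 WNT probes lower. With an equal spread for ctrl every count was 0. With clone as a random block they were 848 and 1721, and 2 and 8 of the WNT probes, and with clone and dye terms over 4 arrays 663 and 1474, and 5 and 7. These last 2 take arrays of a clone as separate samples in part. Without 1 array at a time the counts ran from 56 (without sh-G2 replicate 2) to 340 (without sh-G2 replicate 1) higher, and from 322 (without sh-G2 replicate 2) to 873 (without sh-G1 replicate 2) lower, with 0 WNT probes higher and 2 to 4 lower, DKK3 among them each time.

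By the 1.5-fold rule 1 WNT probe was higher and 1 lower in sh-G1, and 2 and 3 in sh-G2. In sh-G1 the lower ones were 3 with the software's ratios or with no offset, 2 with median centring and 2 by the mean of the arrays, and the deposited table, with 1 array of sh-G1, gave 4 higher and 4 lower. At 2-fold, sh-G1 had 0 and 0 and sh-G2 1 and 0. On a single array of sh-G1, 2 were higher and 2 to 5 lower, and on a single array of sh-G2, 3 to 4 and 5 to 8. The share of all probes was not counted under these altered rules, so the counts are not read as particular to the WNT genes. No named value changed sign across a threshold. Leaving out a clone gives the other clone's value, with no test, and with 1 array left out the clone difference has no residual degrees of freedom and was not tested. The replicate number marks the dye, so the dye term acts as a block by number. Without it the adjusted p of the clone difference rose to 0.034 for WNT5A and to 0.42 for FZD4 (A_23_P64617). Probes near background, such as those of GALNT3, WNT7A, SFRP4 and DKK3 (A_24_P261417), give ratios that shrink towards 0 with the offset.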
